A study of Rhizophagus irregularis DAOM 181602=DAOM 197198 with 30 samples.

Results

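The high mobility group (HMG) box gene models of the arbuscular mycorrhizal fungus Rhizophagus irregularis were followed through spore germination, in the presence of a strigolactone or of root exudates. The members were the models whose deposited InterPro text, annotation notes or best RefSeq hit name a high mobility group protein, an HMG box or HMG1, leaving out enzymes of hydroxymethylglutaryl-CoA. This rule gave 242 of the 30282 gene models in the deposited tables. Of these, 237 carried the InterPro HMG box domain, and 3 more had no InterPro domain but fell in the ortholog group of HMG box-containing proteins. The remaining 2, models 338186 and 165528, matched only through an entry name that reads "high mobility group-like nuclear protein". They belong to the L7Ae family of RNA-binding proteins (338186 to the box H/ACA snoRNP component, 165528 to SNU13 of the spliceosome), and hold no HMG box. They are counted in the totals of members below but neither was called in any treatment comparison. Models are named here by the numeric protein identifiers of the deposited tables.

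The HMG box is a small DNA-binding fold that sits in the minor groove and bends the helix. Proteins of the HMGB and NHP6 type bind with little sequence preference and act as architectural chromatin proteins, the FACT complex uses an HMG box to handle nucleosomes, and transcription factors of the SOX and mating-type kind bind specific sites. In ascomycetes such as Schizosaccharomyces pombe, HMG-box proteins of the mating-type locus set cell identity in the sexual cycle, and in zygomycete fungi the sex locus encodes HMG-box proteins as well. Arbuscular mycorrhizal fungi, in which no sexual cycle has been observed, carry a large set of models named MATA_HMG after these proteins. The name rests on sequence likeness.

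By annotation text, in which the best hit among all proteins was also read, 158 of the 242 models were named after mating-type proteins. That best hit was not part of the rule for members. For 137 members of the whole set the best hit was a Rhizophagus entry called MATA_HMG or MAT-A, and for 12 the best RefSeq hit was a mating-type M-specific polypeptide of fission yeasts. Another 12 models fell in the HMGB or NHP6 type, and 2 were taken as FACT subunits. Of the FACT pair, 341928 belongs to the ortholog group of the Pob3 subunit, while its best hit is a nonhistone protein 6, and 339200 has a structure-specific recognition protein 1 as its best hit. The other 68 members had an HMG box and no such name. The models were short, with a median length of 576 bases against 582 bases for all models. Reads that matched several models made up more than 1% of the reads of only 3 members, namely 204782 (4.74%), 55619 (9.07%) and 47395 (16.1%), whose values are less certain.

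Spores of strain DAOM197198 were germinated in liquid M medium in the dark under CO2-enriched air and, after 2 d, received the synthetic strigolactone GR24 at 1e-06 M or its solvent acetone at a dilution of 1000-fold. Harvests followed after 1 h, after 2 and 7 d, and after 14 d. The other experiment kept spores for 14 d on cellophane over gelled medium with or without carrot hairy roots of line DC1. Polyadenylated RNA of whole germinating spores was sequenced, and 25 of the 30 labelled samples were matched to a column of the deposited tables. At 1 h these were 3 GR24 and 2 acetone libraries, at 2 d the reverse, at 7 d 2 libraries of either treatment and at 14 d 3 of either. A further 3 were titled root exudates and 2 were titled as controls without roots. Cultures of the time course held 80000 spores and those of the root set 60000. A library held 5786080 to 11812317 reads on gene models, and the 242 members took 0.339% of all of them. No label says whether replicates were separate cultures, so p-values measure the spread between these samples.

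The column headings of the root table name its 2 groups the other way round from the sample titles. The titles were followed, and every direction given below for that comparison reverses if the headings are right. A level in scaled counts (CPM, relative to library size and scaled by trimmed mean of M-values) served to compare libraries, and the deposited RPKM, which divides by model length, served to compare models. Fold changes were tested with edgeR's quasi-likelihood test over all models that passed a filter on low counts, with Benjamini-Hochberg adjustment, and "called" means an edgeR adjusted p under 0.05. An error after ± is the standard error of a log2 fold change or, for levels, the SD.

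Most of the family was weakly transcribed in germinating spores, with a median near that of all models. No read fell on 24 of the 242 models in any library, 126 had a mean RPKM of at least 1, 68 of at least 10 and 20 of at least 100. Of all 30282 models, 7154 had no read, 15841 had a mean RPKM of at least 1, 10343 of at least 10 and 2536 of at least 100. Reads were present in all 25 libraries for 96 members and for 14468 of all models. The median of the mean RPKM was 1.16 for the members and 1.38 for all models. Among the classes, the 12 models of HMGB or NHP6 type had a median of 22.7 RPKM, the 158 mating-type models one of 1.09 RPKM and the 68 others one of 0.778 RPKM. After the filter on low counts, between 95 and 123 members were tested in each treatment comparison, and 103 members were tested in no comparison at all.

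The highest member by mean RPKM was 347534, a short model of 258 bases with YABBY and HMG1/HMG2 domains and an uncharacterized ortholog group. Its RPKM was 349 in the lowest library, 917 in the median library and 1345 in the highest. Next came 342371, a model of 195 bases from the same ortholog group, with 312, 807 and 1317. The third, 44445, best matches the mating-type Mc protein of Schizosaccharomyces pombe, and its RPKM ran from 99.2 over a median of 239 to 1649. Below these stood the FACT-type model 339200 (156 to 313, median 235), the L7Ae-type model 338186 (149 to 280, median 229) and 337560 (20.5 to 561, median 108), a YABBY-like model of 192 bases. Neighbours in this order overlapped widely across libraries, so the order describes means only. Among the 20 members with a mean of at least 100 RPKM, 7 were mating-type models, 3 of HMGB or NHP6 type, 6 without a class name, and the remaining 4 the FACT-type and L7Ae-type models. Model 15195 entered that group through the root set alone, with a median of 1.60 RPKM and a highest value of 787.

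**Figure D1:**
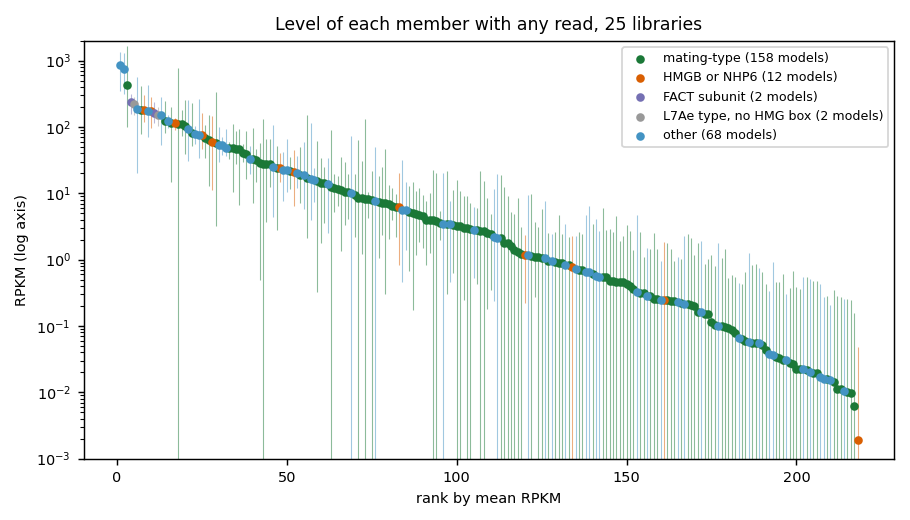
RPKM (log axis) of the 218 members with any read, the L7Ae-type pair included, ordered by mean RPKM; points are means over 25 libraries, lines run from the lowest to the highest library, and lines that reach the lower edge belong to models at 0 in some library. Mating-type, HMGB or NHP6 type and unclassified models are spread along the order. At a mean of 100 or more lie 20 models, among them all FACT-type and L7Ae-type models.

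After 1 h of GR24, 13 of 99 tested members were higher and 5 were lower, while 81 did not pass the test. Of all 13967 models tested, 10.4% were called, 7.05% higher and 3.39% lower, and the 18 members called were 18.2% of those tested. The called members were 16 of 62 mating-type models, 1 of 9 HMGB or NHP6 type models and 1 of 24 unclassified models. Neither FACT subunit and neither L7Ae-type model was called. The median log2 fold change was 0.08 for the members and -0.01 for all models.

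Model 25795, a MATA_HMG model, had 12.6, 18.7 and 16.1 CPM in the GR24 libraries and 1.30 and 1.01 CPM with acetone. The groups lay far apart, at a 13.7-fold difference of means (log2 fold change 3.76 ± 0.30, edgeR adjusted p = 1.29e-10). Its transcript was nearly absent afterwards, with at most 0.476 CPM in any later library of the time course. Model 323886, whose best hit is a putative mating-type HMG-box protein of another arbuscular mycorrhizal fungus, rose from 1.40 and 1.13 CPM to 6.77, 10.5 and 5.98 CPM (2.60 ± 0.36, edgeR adjusted p = 3.92e-06). Model 31813, named after the mating-type protein MAT1-2-1, stood at 14.5, 14.7 and 12.0 CPM against 4.32 and 6.18 CPM (1.41 ± 0.23, edgeR adjusted p = 4.15e-05). Like 25795, these models were low at 2 d and later in both groups. The HMGB or NHP6 type model 349650 had 68.0, 66.4 and 60.4 CPM against 47.2 and 43.4 CPM (0.53 ± 0.10, edgeR adjusted p = 0.000504). These 4 models kept their calls whichever library was left out.

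The other 14 calls at 1 h each ended without at least 1 library, chiefly 1 of the 2 acetone libraries. Higher with GR24 were 16675, 342489, 346422, 209405, 14969, 97172, 341357 and 348510 of the mating-type models and 104909, a long model of the SMRT-type coregulator group, with log2 fold changes of 3.23, 1.43, 1.26, 0.79, 0.72, 0.70, 0.62, 0.52 and 0.28. The value of 16675 rests on few reads, 59 with GR24 against 4 with acetone. Lower were the mating-type models 346798, 344174, 30829, 50597 and 349166, at -1.02, -0.88, -0.77, -0.58 and -0.23. Model 344174 illustrates them with 7.93, 8.57 and 7.97 CPM against 13.8 and 16.6 CPM (edgeR adjusted p = 0.00214). Its groups do not overlap, which was also so for members that were not called, such as 44445. Without acetone replicate 3, 7 members were called, and without acetone replicate 2, 10. Leaving out acetone replicate 3 ended the calls of 14969 (then 0.56), 341357 (0.56), 344174 (-0.74), 348510 (0.43), 346798 (-0.64) and 97172 (0.60). Leaving out acetone replicate 2 ended those of 16675 (2.56) and 30829 (-0.73), and 342489 lost its call without either (1.44 without replicate 2 and 1.41 without replicate 3). The calls of 50597, 346422, 349166, 104909 and 209405 ended without a GR24 library and without an acetone library. Model 346422 was at 0.59 without acetone replicate 2 and at 2.37 without acetone replicate 3, which kept its call, and at 1.14 and 1.24 without GR24 replicates 2 and 3. Over the fits that ended their calls, 50597 lay between -0.70 and -0.42, 349166 between -0.27 and -0.18, 104909 between 0.17 and 0.28 and 209405 between 0.64 and 0.84. With no scaling beyond library totals, the split was 11 higher and 7 lower in place of 13 and 5.

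At 2 d, 3 of 98 tested members were called, all lower with GR24, and 95 did not pass. The share of all 14704 models called lower was 1.13%, and 2.15% were called in either direction. The 3 were mating-type models named MATA_HMG. Model 339405 had 6.89 and 7.59 CPM with GR24 and 15.5, 12.1 and 15.7 CPM with acetone (-0.99 ± 0.20, edgeR adjusted p = 0.019). Model 349218 had 4.16 and 4.42 CPM against 11.3, 7.71 and 9.10 CPM (-1.11 ± 0.25, edgeR adjusted p = 0.0293). Model 348510 had 22.8 and 26.7 CPM against 38.4, 35.9 and 45.2 CPM (-0.69 ± 0.15, edgeR adjusted p = 0.022), so it lay below acetone here after lying above it at 1 h. The groups did not overlap in any of the 3, nor did they in several members that were not called, such as 342519, 20304 and 346798. None was called without GR24 replicate 1, GR24 replicate 3 or acetone replicate 3, in that order with log2 fold changes of -0.93, -1.07 and -0.92 for 339405. Model 349218 then stood at -1.07, -1.16 and -1.12, and model 348510 at -0.59, -0.81 and -0.58. Without acetone replicate 1 the call of 349218 ended too, at -0.97, and without acetone replicate 2 the count was 7. With the replicate number as a block 6 members were called.

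At 7 d, GR24 libraries were higher for 8 and lower for 6 of 102 tested members, and 88 did not pass. This is 13.7% of the members tested, against 6.43% called among all 14269 models (4.31% higher and 2.12% lower). Only 2 libraries per group were available. The higher members were 5 of the 27 unclassified models, 2 of 9 HMGB or NHP6 type models and 1 mating-type model, whereas 5 of the 6 lower ones were mating-type models.

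The largest rise at 7 d was that of 337560, the YABBY-like model, with 57.3 and 49.0 CPM against 18.7 and 21.2 CPM (1.40 ± 0.15, edgeR adjusted p = 3.69e-10). Its level in acetone fell between 2 d and 7 d and again by 14 d, and at 7 d the GR24 libraries still stood within the range of the 2 d libraries. The unclassified HMG1/HMG2 model 335973, whose acetone level also fell between 2 d and 7 d, had 13.4 and 15.4 CPM against 5.47 and 5.74 CPM (1.35 ± 0.24, edgeR adjusted p = 3.33e-05). Model 172883, of HMGB type and closest to mitochondrial transcription factor A, an HMG-box protein that packages mitochondrial DNA in animals, had 219 and 177 CPM against 145 and 124 CPM (0.57 ± 0.10, edgeR adjusted p = 7.14e-05). The MATA_HMG model 18147 had 57.2 and 52.7 CPM against 31.4 and 32.7 CPM (0.77 ± 0.13, edgeR adjusted p = 2.96e-05). Lower with GR24, 348510 had 17.8 and 18.6 CPM against 31.0 and 33.3 CPM (-0.83 ± 0.16, edgeR adjusted p = 0.000308). These 5 calls held in each of the 4 fits that left out 1 library.

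The short YABBY-like models 334875, 338537 and 342371 were also higher at 7 d, at log2 fold changes of 0.97, 0.75 and 0.28, as was the HMGB or NHP6 type model 25748 at 0.82. The lower members were 349981, 21403, 339405 and 224322 of the mating-type class and the HMG-box transcription factor model 349958, at -2.90, -1.79, -0.77, -0.60 and -0.45. The value of 349981 rests on few reads, 4 with GR24 against 31 with acetone. Each of these 9 calls ended without at least 1 library. Without GR24 replicate 2, 7 members were called, and the calls of 334875 (0.54), 338537 (0.49), 342371 (0.18), 349981 (-1.89), 21403 (-1.28), 339405 (-0.74), 224322 (-0.41) and 349958 (-0.41) ended. Without acetone replicate 2, 6 members were called, and those of 25748 (0.44), 338537 (0.64), 342371 (0.27), 349981 (-2.99), 21403 (-2.06), 339405 (-0.75), 224322 (-0.54) and 349958 (-0.48) ended. Acetone replicate 1 ended the calls of 342371 (0.28), 349981 (-2.85), 21403 (-1.58), 339405 (-0.79) and 349958 (-0.43). DESeq2 called 8 members, 7 of them higher.

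At 14 d, 2 of 95 tested members were higher with GR24 and 3 were lower, while 90 did not pass. Of all 14080 models, 3.25% were called, 1.29% higher and 1.95% lower. Model 18147 was again higher, with 78.4, 66.9 and 73.1 CPM against 57.6, 55.5 and 51.7 CPM (0.41 ± 0.08, edgeR adjusted p = 0.00321), and it was the only one of the 5 whose call held in all 6 fits without 1 library. Model 349166, the most abundant MATA_HMG model after 44445, was higher by 0.27 ± 0.06 (109 ± 3.89 against 90.0 ± 6.72 CPM, n = 3 each, edgeR adjusted p = 0.0161). Lower were the mating-type models 47807 (-1.46 ± 0.33, edgeR adjusted p = 0.0114) and 161133 (-0.59 ± 0.14, edgeR adjusted p = 0.0141) and the most abundant member, 347534 (-0.22 ± 0.05, edgeR adjusted p = 0.014). The last had 244, 254 and 237 CPM against 285, 267 and 300 CPM.

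Single libraries decided most of these 14 d calls. Without acetone replicate 3 only 18147 was called, and 349166, 47807, 161133 and 347534 stood at 0.26, -1.45, -0.51 and -0.17. Without GR24 replicate 1 2 members were called, and the same 4 models stood at 0.26, -1.13, -0.54 and -0.21. Without GR24 replicate 3 3 members were called, and the calls of 347534 (-0.19) and 349166 (0.27) ended. GR24 replicate 2 ended the call of 161133 (-0.54), acetone replicate 1 that of 349166 (0.24) and acetone replicate 2 that of 47807 (-1.32). A pair of abundant MATA_HMG models differed in level without passing the test. Model 341020 had 17.0, 83.8 and 131 CPM with GR24 against 203, 275 and 210 CPM (-1.57 ± 0.70, edgeR adjusted p = 0.439), and 348510 had 33.5, 58.8 and 78.8 CPM against 108, 117 and 107 CPM (-0.95 ± 0.33, edgeR adjusted p = 0.315). The groups did not overlap for either, but the GR24 libraries were spread widely, and replicate 1 was the lowest of them for both.

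**Figure D2:**
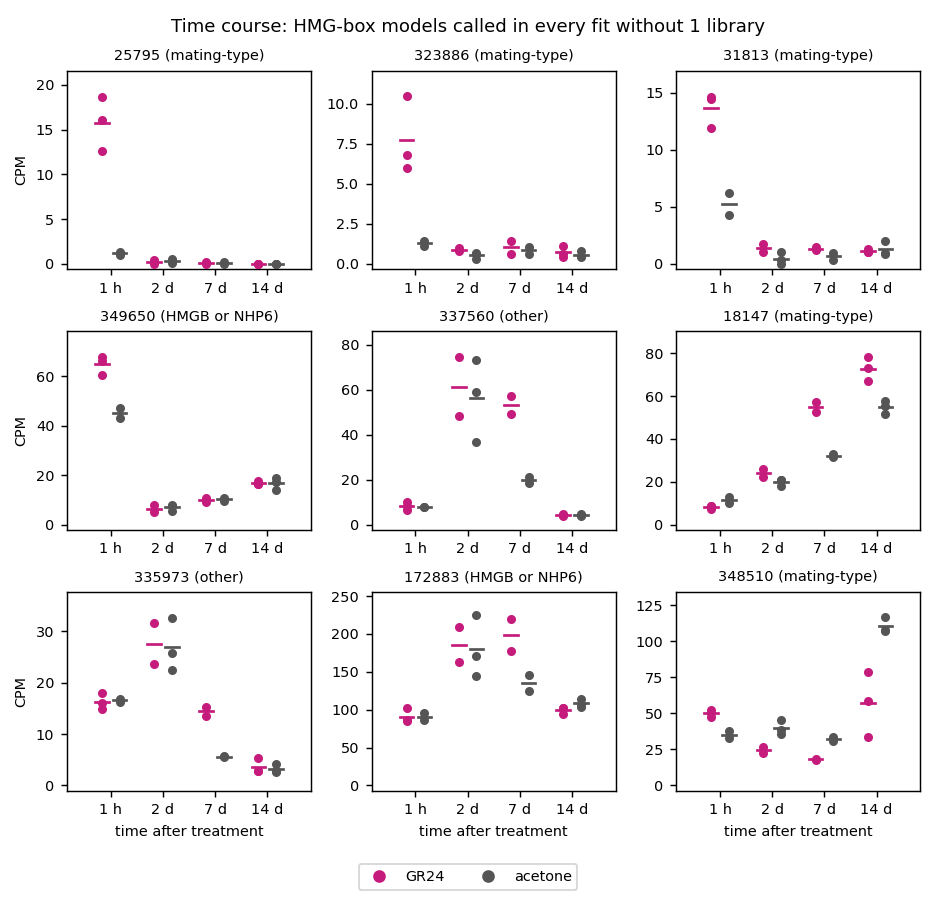
CPM of the 9 HMG-box models whose call in a GR24 comparison held in every fit without 1 library, at each time; points are libraries and bars are group means. Models 25795, 323886 and 31813 stand above acetone at 1 h and are low in both groups later, 337560, 335973 and 172883 differ at 7 d, and 18147 is higher with GR24 at 7 d and 14 d.

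Across the 4 times, 35 of 117 members tested (29.9%) were called in at least 1 GR24 comparison, against 16.9% of 15369 models, 3 of the 35 in 2 comparisons and 1, 348510, in 3. A fit with 1 GR24 effect shared by all times called 7 of 121 tested members, 4 higher and 3 lower, against 3.84% of all 15712 models (2.17% higher and 1.67% lower). The 2 calls that held in each of the 20 fits without 1 library were 339405 (-0.64 ± 0.13, edgeR adjusted p = 0.0036) and 15403 (-0.87 ± 0.20, edgeR adjusted p = 0.0112), both lower with GR24 and both named MATA_HMG. Model 15403 had 4.84, 3.40 and 3.45 CPM with acetone at 14 d against 2.30, 2.08 and 1.97 CPM with GR24. The others were 336521 (2.89), 25795 (2.84), 323886 (1.34) and 342371 (0.15), which were higher, and 349958 (-0.23), which was lower. Model 336521 had only 57 reads in the 20 libraries. The effect of 25795 differed between times (edgeR adjusted p = 0.0324 for the interaction). At single times, 25795 and 323886 were called at 1 h only, so for both the shared value is not an effect seen at every time. Without acetone replicate 2 or 3 of 1 h, the calls of 25795 (2.39 and 2.32) and 323886 (1.08 and 1.06) ended. With no scaling beyond library totals and in DESeq2, the split was 3 higher and 5 lower.

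The GR24 effect differed between times for 15 of 121 members in a test of the interaction, 12.4%, against 10.1% of all models. Model 341357, a MATA_HMG model, was the clearest (edgeR adjusted p = 0.000164). It was higher with GR24 at 1 h, at 0.62 ± 0.14, with 32.7, 33.8 and 32.3 CPM against 22.7 and 20.6 CPM. At 2 d, 7 d and 14 d its fitted values were -0.53 ± 0.17, -0.57 ± 0.19 and -0.54 ± 0.15, none of which was called. Both FACT-type models were among the 15, although neither was called at any single time. Their log2 fold changes stayed small, between -0.19 and 0.22 for 339200 and between -0.17 and 0.19 for 341928.

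**Figure D3:**
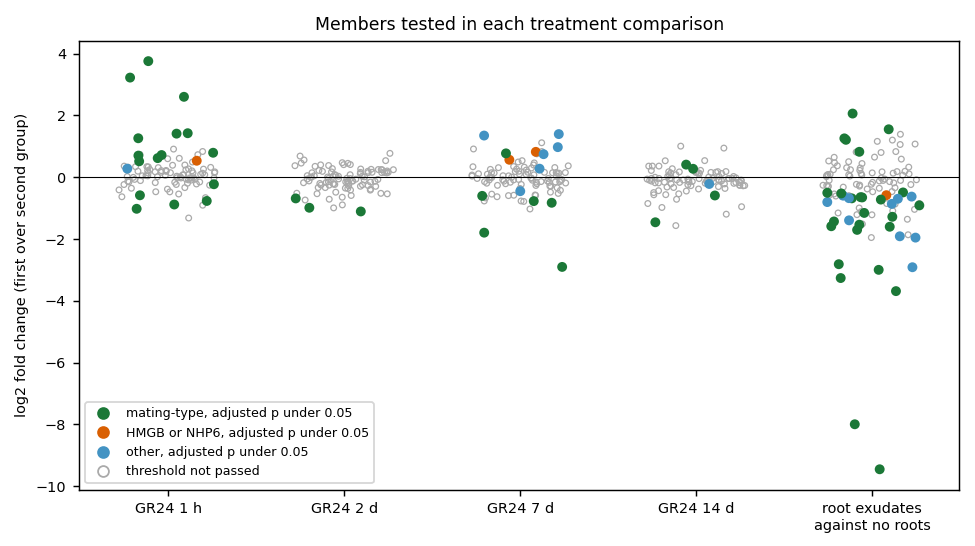
Log2 fold change of each tested member (first over second group) in the 5 treatment comparisons; filled points were called, with colour for class, and open points did not pass. The root comparison has 32 of its 37 called members below 0, and fitted values under -7 belong to 336521 and 85395, which had 2 and 0 reads in the libraries titled root exudates.

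In the root set, 32 of 123 tested members were lower and 5 were higher in the libraries titled root exudates than in those titled no roots, and 86 did not pass. The 37 called were 30.1% of the members tested, against 15.2% of all 14752 models. Of all models 7.75% were called lower and 7.46% higher. The mating-type class gave 26 calls of 77 tested models (33.8%), the unclassified models 10 of 33 (30.3%) and the HMGB or NHP6 type 1 of 9, which was 25748. Neither FACT subunit was called. The median log2 fold change was -0.30 for the members and -0.01 for all models. Since the whole spore mass was sequenced, fewer cells of a kind and less RNA per cell cannot be told apart here or elsewhere. If the headings of the deposited table were right in place of the titles, the 32 would be higher with root exudates.

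Several mating-type models were higher in the libraries titled no roots than in those titled root exudates and, as plotted for 14 d, than in the time course. Model 336521 had 94.9 and 50.2 CPM there against 0, 0.302 and 0 CPM with root exudates, or 1217 reads against 2. The ratio was 870-fold, with an exact 95% interval for counting error of 240.2 to 7189. In the time course it reached at most 1.80 CPM. Model 85395 had 67 reads in the libraries titled no roots and 0 in those titled root exudates, which makes it at least 31.9-fold lower with root exudates when 3 reads over the group are taken as the floor. Model 14969 had 35.4 and 25.5 CPM against 3.03, 1.36 and 2.58 CPM (-3.69 ± 0.27, edgeR adjusted p = 1.28e-05). In the time course that model was high at 1 h, with 20.6 to 41.2 CPM, and at 2 d or later it did not exceed 1.72 CPM. Model 341357 had 44.3 and 39.6 CPM against 15.3, 13.9 and 12.9 CPM (-1.59 ± 0.15, edgeR adjusted p = 6.44e-05).

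Further members followed the same direction from a higher level. Model 340933, an HMG-box transcription factor named MATA_HMG, had 276 and 210 CPM without roots and 66.6, 86.1 and 88.1 CPM with root exudates (-1.60 ± 0.15, edgeR adjusted p = 0.000794). The unclassified model 349357 had 73.6 and 41.4 CPM against 5.802, 10.3 and 7.14 CPM (-2.91 ± 0.31, edgeR adjusted p = 0.00185). In the time course both stood near the level of the libraries titled root exudates, at 68.7 to 122 CPM for 340933 and 2.91 to 9.64 CPM for 349357. Model 3757, which joins an HMG box to a protein kinase domain, had 85.7 and 87.8 CPM against 54.7, 56.2 and 50.2 CPM (-0.70 ± 0.10, edgeR adjusted p = 0.000864). The 5 members higher in the libraries titled root exudates were the mating-type models 342489 (2.06), 61609 (1.55), 204782 (1.26), 87854 (1.21) and 30829 (0.82). Of these, 342489 had 6.07, 10.1 and 7.49 CPM against 2.11 and 1.60 CPM (edgeR adjusted p = 0.00219), and 204782 had 18.5, 21.7 and 19.7 CPM against 8.32 and 8.26 CPM (edgeR adjusted p = 0.000987). Reads matching several models made up 4.74% of the reads of 204782.

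Of the 20 members with the smallest p in this comparison, 13 kept their calls in all 5 fits without 1 library. Without no roots replicate 1, 20 members were called in all, and the calls of 25308 (-0.41), 25748 (-0.60), 33432 (-0.58), 46692 (-0.86) and 81945 (-0.97) ended. Replicate 2 of the same group ended those of 337560 (-0.54) and 25748 (-0.56), and root exudates replicate 1 that of 15195 (-0.65). No scaling beyond library totals gave 4 higher and 32 lower members, and 35.8% of all calls higher against 49.0% with TMM scaling.

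**Figure D4:**
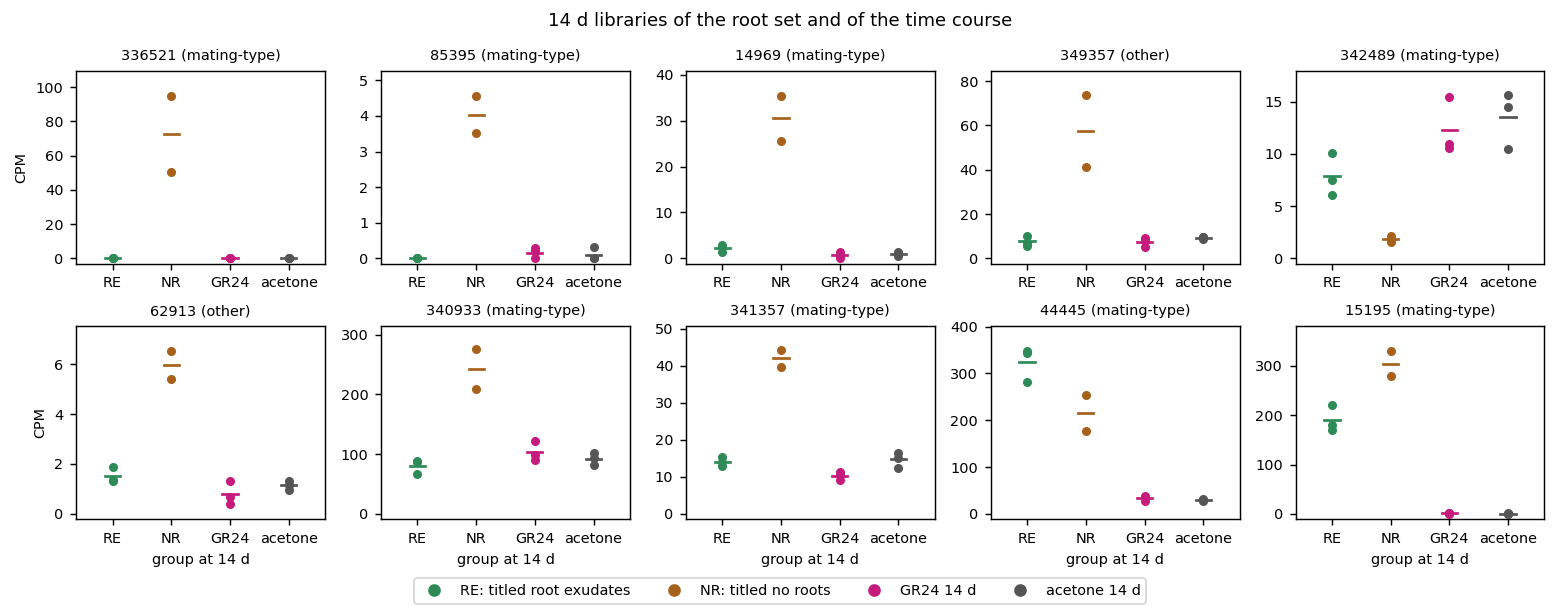
CPM of 10 HMG-box models at 14 d in libraries titled root exudates (RE) and no roots (NR) and in the GR24 and acetone libraries of the time course; points are libraries and bars are group means. Models 336521, 85395, 14969, 349357, 62913, 340933 and 341357 are highest in NR, 342489 is lowest there, and 44445 and 15195 lie above the time course in both RE and NR.

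The root set was also set against the time course as a whole, and the levels of most members overlapped between them. Among 162 members with at least 25 reads, all 5 root-set libraries lay above all 20 time-course libraries for 35 members (21.6%) and below them for 6 (3.70%). Over the 18336 models with as many reads these shares were 7.06% and 8.00%. Some of the 35 passed the minimum of 25 reads only through the root set, and so had to be high there. With at least 25 reads in the time course alone, 23 of 139 members (16.5%) lay above, against 6.72% of 17781 models. With at least 25 reads in the root set alone, 6 of 135 members (4.44%) lay below, against 8.98% of 15763 models. Culture form, medium, spore number and culture set all differ between the sets and cannot be told apart, and no model was fitted across them. Model 44445 was the largest of these by level, with 177 to 349 CPM in the root set and 23.2 to 65.5 CPM in the time course, and its difference within the root set was not called (0.59 ± 0.18, edgeR adjusted p = 0.0856). Model 15195, a mating-type model, had 170 to 330 CPM against at most 1.68 CPM. Model 46692 had 648 reads in the root set and 11 in all 20 time-course libraries. Models 90115, 26471 and 26727 had 68, 55 and 27 reads in the root set and 0 reads in the time course. Like 46692, they passed the minimum of 25 reads only through the root set, and so had to be high there. The FACT-type model 341928 was also above, at 178 to 221 CPM against 116 to 167 CPM, and so was the HMGB or NHP6 type model 62246, at 57.2 to 71.0 CPM against 29.9 to 44.7 CPM. Below the time course lay both L7Ae-type models and the mating-type models 349166, 204782, 342519 and 13622. Model 342519 held 0.493 to 2.37 CPM in the root set and 18.9 to 66.5 CPM in the time course.

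Many members changed with time in culture. Between 1 h and 14 d in acetone, 40 of 121 tested members rose, 37 fell and 44 did not pass. The 77 called were 63.6% of the members tested, against 53.0% of all 15712 models. All models were called higher in 26.3% and lower in 26.7% of cases. Between 1 h and 2 d, 39 members rose and 21 fell, against 39.4% of all models called, 20.7% higher and 18.7% lower. Between 2 d and 7 d, 17 rose and 15 fell, against 25.0% of all models called, 12.1% higher and 13.0% lower. Between 7 d and 14 d, 6 rose and 23 fell, against 21.8% of all models called, 10.4% higher and 11.5% lower. The share of members called was 49.6%, 26.4% and 24.0% for these intervals in turn. The mean acetone level was highest at 1 h for 41 members (33.9%, against 32.9% of all models), at 2 d for 25 (20.7% against 21.1%), at 7 d for 27 (22.3% against 18.1%) and at 14 d for 28 (23.1% against 27.9%), shares near those of all models.

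Of the HMGB or NHP6 type, 2 of 9 tested models were called between 1 h and 14 d, 1 in each direction, and 7 did not pass. The HMGB or NHP6 type model 349650 fell from 47.2 and 43.4 CPM at 1 h to 8.00, 5.52 and 7.60 CPM at 2 d (-2.71 ± 0.16, edgeR adjusted p = 3.58e-15) and stood at 14.0, 18.9 and 17.4 CPM at 14 d. The FACT-type model 339200 fell from 128 ± 2.29 CPM (n = 2) at 1 h to 74.1 ± 3.74 CPM (n = 3) at 14 d (-0.79 ± 0.07, edgeR adjusted p = 2.63e-11). The other FACT-type model, 341928, had 128 and 116 CPM at 1 h and 152, 161 and 165 CPM at 14 d, and it was called higher. Of the most abundant members, 347534 went from 94.6 ± 2.37 CPM at 1 h to 305 ± 40.0 CPM at 2 d (1.69 ± 0.14, edgeR adjusted p = 1.07e-07) and 284 ± 16.4 CPM at 14 d, while 342371 rose from 69.5 ± 0.10 to 180 ± 2.63 CPM (1.37 ± 0.08, edgeR adjusted p = 1.11e-15) and returned to 87.9 ± 3.79 CPM. Model 337560 rose from 7.86 ± 0.12 to 56.3 ± 18.3 CPM and fell to 4.40 ± 0.44 CPM. Both L7Ae-type models were called lower at 14 d than at 1 h, and 1 of the 2 was called lower from 1 h to 2 d and 1 from 7 d to 14 d.

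Mating-type members took several courses. Of 79 tested between 1 h and 14 d, 24 rose, 26 fell and 29 did not pass. Model 30829 rose from 1 h to 2 d and from 2 d to 7 d, and its step from 7 d to 14 d did not pass. It had 17.4 and 16.4 CPM at 1 h and 50.02, 46.4 and 52.9 CPM at 2 d. At 7 d it had 101 and 106 CPM and at 14 d 115, 97.6 and 106 CPM (14 d against 1 h: 2.65 ± 0.12, edgeR adjusted p = 1.01e-18). Model 18147, called higher at every step, rose from 11.5 ± 1.95 CPM at 1 h to 54.9 ± 2.99 CPM at 14 d (2.25 ± 0.14, edgeR adjusted p = 1.37e-15). In the opposite direction, 349166 fell from 271 ± 12.6 to 90.0 ± 6.72 CPM (-1.59 ± 0.09, edgeR adjusted p = 7.01e-15) and 14969 from 23.4 ± 4.09 to 1.02 ± 0.45 CPM (-4.57 ± 0.34, edgeR adjusted p = 2.44e-12). The largest called rise between 7 d and 14 d was that of 341020, which stood at 14.3 and 13.1 CPM at 7 d and 203, 275 and 210 CPM at 14 d (4.08 ± 0.68, edgeR adjusted p = 0.000881). Model 44445 rose by 2 d and was lower again at 14 d than at 7 d, with 30.7 ± 4.53 CPM at 1 h, 59.7 ± 5.23 CPM at 2 d and 29.7 ± 2.79 CPM at 14 d.

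The 20 members with the smallest p kept their calls in all 20 fits without 1 library for 2 d against 1 h and for 14 d against 1 h, as did 13 of 20 for 7 d against 2 d and 12 of 20 for 14 d against 7 d. Without acetone 7 d replicate 2, 16 members were called between 2 d and 7 d and 16 between 7 d and 14 d, and the second count was 17 without acetone 7 d replicate 1 and 19 without acetone 14 d replicate 3. For 2 d against 1 h, no scaling beyond library totals moved the median of all models from 0.04 to 0.11 and gave 41 higher and 16 lower members. For 7 d against 2 d it gave 16 higher and 17 lower.

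**Figure D5:**
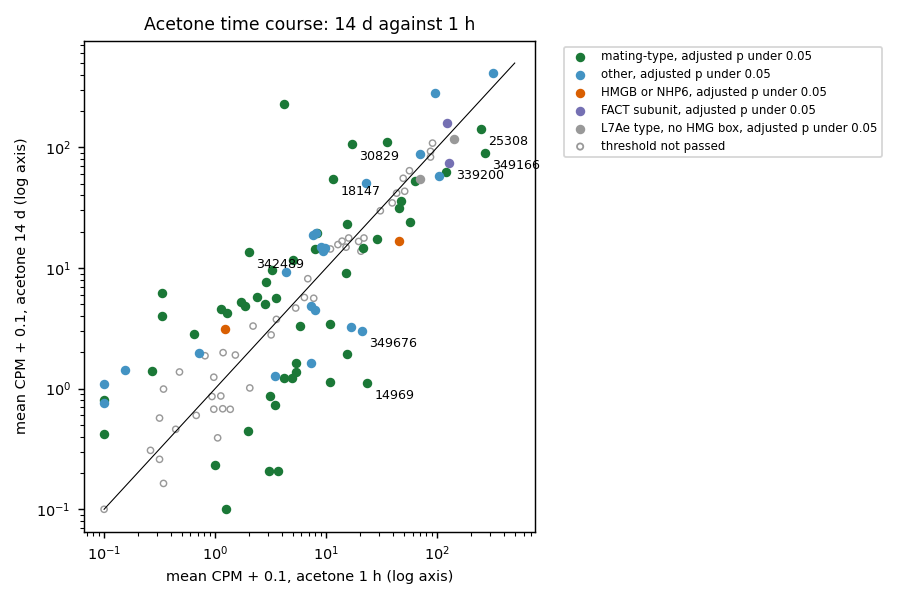
Mean CPM + 0.1 of the 121 tested members in acetone at 1 h (horizontal, log axis, n = 2) and 14 d (vertical, log axis, n = 3); filled points were called, with colour for class, and the line marks equal levels. Called models lie on both sides of the line, 40 above and 37 below.

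Lists of other genes were defined by annotation words alone, and a working link between these genes and the HMG-box members was not tested. Histones, the proteins that HMGB and FACT act on, were called higher with GR24 at 7 d for 11 of 25 tested models and lower for 0, when the background of higher calls was 4.31%. At 1 h the histone counts were 1 higher and 1 lower of 23, and at 2 d and 14 d none of 25 and none of 23 passed. In acetone 13 of 25 histones rose and 2 fell from 1 h to 2 d, when 20.7% of all models rose and 18.7% fell. From 7 d to 14 d 2 rose and 15 fell, when 10.4% of all models rose and 11.5% fell. Words for pheromone and mating signalling picked 37 models, many of them transporters and Ste20-type kinases, and at 1 h of GR24 8 of 28 tested were higher and 0 lower against a background of 7.05% higher. At 2 d the counts were 3 higher and 0 lower of 28, at 7 d 3 and 2, at 14 d 1 and 1, and in the root comparison 6 and 4. Of all models, 1.02% were higher and 1.13% lower at 2 d, and 4.31% and 2.12% at 7 d. At 14 d the shares were 1.29% and 1.95%, and in the root comparison 7.46% and 7.75%. Among them, 348605, the model of the STE3-type pheromone receptor family, was higher at 1 h (378 ± 8.82 against 278 ± 16.8 CPM, 0.46 ± 0.07, edgeR adjusted p = 1.07e-05). Its level fell in acetone from 278 ± 16.8 CPM at 1 h to 49.2 ± 5.32 CPM at 14 d. Model 68083, of the Ste12 transcription factor type, which acts downstream of pheromone in yeasts, was not called in any GR24 comparison, and in the root set it was higher in the libraries titled root exudates (0.45 ± 0.08, edgeR adjusted p = 0.00429).

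Another list held 12 models picked by words for the homeodomain, which some fungal mating-type regulators carry. Of these, 1 of 9 tested was higher with GR24 after 1 h and 1 of 10 after 2 d. After 7 d 1 of 10 was higher and after 14 d none of 10, and in the root comparison 1 of 9 was higher, while none was lower in these comparisons. Meiosis genes gave 1 higher and 1 lower call of 24 after 1 h of GR24 and 4 higher calls of 26 after 7 d. None of them passed after 2 d or 14 d. In the root comparison 2 of 26 meiosis models were higher and 1 was lower, and 1 of 26 histones was higher and 5 were lower. Of all models, 7.05% were called higher and 3.39% lower after 1 h of GR24, and 1.02% and 1.13% after 2 d. These shares were 4.31% and 2.12% after 7 d, 1.29% and 1.95% after 14 d, and 7.46% and 7.75% in the root comparison. Between 1 h and 14 d in acetone, 4 of 25 tested histones rose and 8 fell, as did 1 and 3 of 11 homeodomain models, 8 and 8 of 27 meiosis models and 12 and 10 of 29 pheromone and mating models, against 26.3% of all models higher and 26.7% lower. The authors' deposited tables, which use Baggerley's test with a false discovery rate, put 6 members among 464 models under 0.05 for GR24 at 1 h. They put 1 of 166 there after 2 d, 4 of 249 after 7 d, 3 of 104 after 14 d and 23 of 935 in the root comparison.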

How the data were processed

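RNA-seq of germinating Rhizophagus irregularis spores was analysed from tables of gene models. Per the file headers, the deposited values are total and unique read counts per model, RPKM by the authors, model length in bases, and for each treatment comparison a p-value corrected to a false discovery rate and a signed fold-change score of weighted proportions by the authors. The fold-change score was read but no value of it is printed. Which aligner and build were used is not given in the sources.

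Members were selected by annotation text, and members and lists were chosen with earlier results of these data known. Classes were read from the same text and from the best hit among all proteins, a column the selection did not use and that was chosen after the files were seen. Differences in total read counts were assessed by edgeR 4.0.16, run under R 4.3.3 (filterByExpr, TMM scaling, robust quasi-likelihood fit) for GR24 against acetone at each time, root exudates against no roots, a shared GR24 effect, GR24 by time, and acetone times. P-values were adjusted by Benjamini-Hochberg over all models tested, with a threshold of 0.05. Pairwise fits used their own libraries, and the time-course fits used all 20 libraries. The test was also run on simulated counts, with large changes seeded only in models with more reads. That check does not cover small changes or low counts. The standard error is the log2 fold change over the square root of F. CPM are TMM-scaled over 25 libraries. Intervals and floors cover counting error only.

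Named are members past the threshold (up to 20 per comparison, by p), the 6 with the highest mean RPKM and those annotated as known proteins; those given for the root set against the time course, and 341020, were chosen after their values were seen. Replicate numbers did not pair samples: same-numbered libraries correlated at -0.0786 to 0.0207 in their deviations from group means. No 2 replicates agreed within sampling noise (chi-square per degree of freedom 2.78 to 9.83 over 20 pairs). Of 30 labelled samples, 5 had no matching column and were not analysed here. Alternatives were relative log expression scaling, DESeq2 1.42.0, no filter, unique counts, each library left out, a replicate block and, added after the data were seen, no scaling beyond library totals.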

Additional observations from a re-analysis of the deposited data

Results flagged for a closer look

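The effect of GR24 differed between times in an interaction test across the 4 sampled times for 15 HMG-box members, and each is given here with its adjusted p from edgeR's quasi-likelihood test. The values were 0.000164 for 341357, 0.000466 for 344174, 0.000508 for 18147, 0.00712 for 346798, 0.0115 for 339200, 0.0127 for 342489, 0.0134 for 349166, 0.0144 for 335973, 0.0233 for 50597, 0.0241 for 30829, 0.0278 for 337560, 0.0318 for 349218, 0.0324 for 25795, 0.0368 for 348510 and 0.0424 for 341928. Those of 341357, 344174, 18147 and 339200 stayed under 0.05 in each of 20 fits without 1 library, and those of the other 11 did not.

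Their courses differed. Models 344174, 346798, 50597 and 30829 were lower with GR24 at 1 h (log2 fold changes of -0.88, -1.02, -0.58 and -0.77) and lay between -0.27 and 0.37 at later times. Models 25795 and 342489 were higher at 1 h (3.76 and 1.43), and 342489 lay between -0.23 and 0.05 afterwards. Models 335973 and 337560 differed at 7 d (1.35 and 1.40) and lay between -0.04 and 0.18 at the other times. Model 18147 went from -0.47 at 1 h to 0.28, 0.77 and 0.41, and 349166 from -0.23 to 0.25, 0.26 and 0.27. Model 348510 went from 0.52 to -0.69, -0.83 and -0.95, and 349218 from -0.54 to -1.11, -0.28 and 0.54.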

How the results depend on the processing

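The number of members called moved by more than 1.5 times in several settings. Without a filter on low counts it was 8 at 2 d of GR24, 11 for the shared effect and 30 for the interaction, in place of 3, 7 and 15. With a replicate block it was 6 at 2 d, and DESeq2 gave 8 at 7 d in place of 14. Leaving out each library in turn moved it by more than 1.5 times in 8 of the 11 comparisons. It gave 7 to 18 members at 1 h, 0 to 7 at 2 d, 6 to 18 at 7 d, 1 to 6 at 14 d, 20 to 41 in the root comparison, 5 to 10 for the shared effect and 7 to 16 for the interaction. In acetone it gave 46 to 62 for 2 d against 1 h, 16 to 33 for 7 d against 2 d, 16 to 31 for 14 d against 7 d and 60 to 78 for 14 d against 1 h. The cause was not tested. For many of these settings, the number of all models called is not given beside the count of members. Such shifts, here or in the single fits above, can therefore not be read as particular to the members. No named member changed direction in any setting.

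The replicate block, with numbers that did not pair samples, gave 17 members at 1 h, 6 at 2 d, 5 at 14 d, 33 in the root comparison, 6 for the shared effect, 18 for the interaction, and 57, 32, 28 and 76 for the acetone comparisons in the order above. For GR24 at 7 d alone, no paired analysis was possible because its groups share only 1 replicate number. Of all models, 831 were called at 2 d and 863 at 14 d without a filter, in place of 316 and 457, 504 at 2 d with the block, and 524 at 7 d by DESeq2 in place of 917. Groups of 2 libraries and low counts limit what could be called.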
